A study of Homo sapiens with 12 samples.

Results

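The genes described here are 5 nuclear receptors for retinoids and 4 of their coregulators, found by their symbols and making up 9 of the 58233 genes in the expression table. The receptors were RARA, RARB and RARG, which bind all-trans retinoic acid (ATRA), and their dimer partners RXRA and RXRB. The coregulators were the corepressors NCOR1 and NRIP1 and the coactivators NCOA1 and NCOA3. RNA sequencing had been performed on HL-60, an established human acute myeloid leukaemia line of promyelocyte-like cells labelled as wild type, grown in RPMI with fetal calf serum. Each of 4 groups had 3 libraries: untreated, 100 nM ATRA, 500 nM palbociclib (which blocks CDK4 and CDK6, kinases of the cell cycle) and the combination of the 2 drugs at those doses, all at 3 h. The untreated group is labelled only as untreated, and a vehicle is not named for it. All groups are of a single cell line, and the labels do not say whether the 3 libraries of a group came from separate cultures, so the p-values measure the spread between these libraries.

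A retinoic acid receptor sits on DNA as a heterodimer with a retinoid X receptor, mostly on direct repeats of a short hexamer. Without ligand the pair holds corepressors such as NCOR1 and the histone deacetylases bound to them. Ligand exchanges these for coactivators of the p160 family, such as NCOA1 and NCOA3, which bring in histone acetyltransferases, whereas NRIP1 (RIP140) is unusual in binding ligand-occupied receptors and repressing them. In acute promyelocytic leukaemia the RARA gene is fused to another gene, and ATRA is used to differentiate the leukaemic cells.

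Retinoic acid response elements are built from hexamers. The form AGGTCA, the related form AGTTCA, the form with GGGTCA and the form with GGTTCA were searched on both strands of the RefSeq promoter windows (GRCh38.p14, 250 bases before to 50 bases after a start site). The 9 genes had 21 windows, and 6 of them (28.6%) held at least 1 hexamer, against 38.6% of all 35116 windows. A hexamer in such a window is therefore common, and none of the matches is evidence of binding. A direct repeat of 2 hexamers spaced by 5 bases was found in 0.0883% of all windows, one spaced by 1 base in 0.131% and one spaced by 2 bases in 0.0399%. Among the windows of the 9 genes, 1 direct repeat was found, spaced by 5 bases, before the RARB start site at position 25428263 of chromosome 3. It is shown because RARB is the member with the textbook response element, with 6 bases on each side and the hexamers in capitals (chr3:25428204-25428232, plus strand). It ran from -53 to -37 relative to that start site, and GENCODE v44 also annotates RARB transcripts that begin further upstream.
RARB: gggtagGGTTCAccgaaAGTTCActcgca

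RARA and NRIP1 both rose with ATRA, and the bases before their outermost start sites are shown with the hexamers in capitals. The first is chr17:40308930-40309179 on the plus strand and the second chr21:15065937-15066186 on the minus strand. RARA held AGGTCA at -230 and, at -92, TGACCC, which reads GGGTCA on the other strand. NRIP1 held a single GGTTCA at -75. The other windows of RARA and NRIP1 held none of the 4 hexamers.
RARA: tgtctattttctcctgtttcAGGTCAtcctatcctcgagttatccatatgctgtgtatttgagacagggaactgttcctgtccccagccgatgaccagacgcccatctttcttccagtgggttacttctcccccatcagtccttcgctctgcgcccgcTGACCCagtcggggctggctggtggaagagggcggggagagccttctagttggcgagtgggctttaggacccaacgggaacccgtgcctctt
NRIP1: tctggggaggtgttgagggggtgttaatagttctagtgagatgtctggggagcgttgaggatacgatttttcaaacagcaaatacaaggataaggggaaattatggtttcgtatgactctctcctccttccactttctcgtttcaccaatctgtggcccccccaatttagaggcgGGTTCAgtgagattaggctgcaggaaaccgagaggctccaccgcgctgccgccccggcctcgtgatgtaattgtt
In neither sequence did the hexamers form a direct repeat of the 3 spacings searched. The window of NCOA3, which also rose, and both windows of RXRB held none of the 4 hexamers, and 1 of the 2 RXRA windows held GGGTCA at -236. These matches describe letters in short windows and leave enhancers and introns unsearched.

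All values below are RPKM (reads scaled by the length of a gene and the size of its library), rounded to whole numbers by the authors, so a listed 1 can stand for 0.5 to 1.5, and a gene listed at 0 lay under 0.5. Differences were tested with limma on log2(RPKM + 0.1) over the 7820 genes with at least 5 RPKM in at least 3 libraries, and called at a Benjamini-Hochberg adjusted p under 0.05. RARA, RXRA, RXRB, NCOR1, NRIP1 and NCOA3 passed that filter, and RARB, RARG and NCOA1 did not. The libraries' RPKM summed to 358455 to 390247, which is not a read depth. Myeloid MPO was listed at 1077 to 1579 in the 12 libraries and PRTN3 at 195 to 310, while ELANE, another granule protease of promyelocytes, was listed at only 0 to 1. T cell, erythroid and epithelial markers (3 genes each) were all listed at 0, and of 3 B cell markers only CD79A reached 1.

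One property of the libraries touched several of these genes. In the ATRA, palbociclib and combination groups, the library numbered 1 had lower values for long transcripts than the other 2 libraries of its group. For the 951 genes with a canonical transcript over 6 kb, its median log2 deviation from those 2 libraries was -0.29 with ATRA, -0.31 with palbociclib and -0.27 with the combination, and for the 1539 genes under 1 kb it was 0.23, 0.21 and 0.20. In the untreated group no library deviated by more than 0.08 in any length class. NCOR1 (10705 bases), NCOA3 (7961), NRIP1 (7751) and NCOA1 (7381) are the long members, RXRA has 5537 bases, and RARA (3275), RARB (3132), RARG (2917) and RXRB (2885) are shorter. In those 3 libraries NCOR1 stood at 57.1%, 64.5% and 57.1% of the mean of the other 2 libraries, and NCOA3 at 54.4%, 60.0% and 55.7%. The part of this length pattern in the coregulators' values was not tested, and the changes of NCOR1, NCOA3, NRIP1 and RXRA with ATRA are given with and without these libraries.

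**Figure D1:**
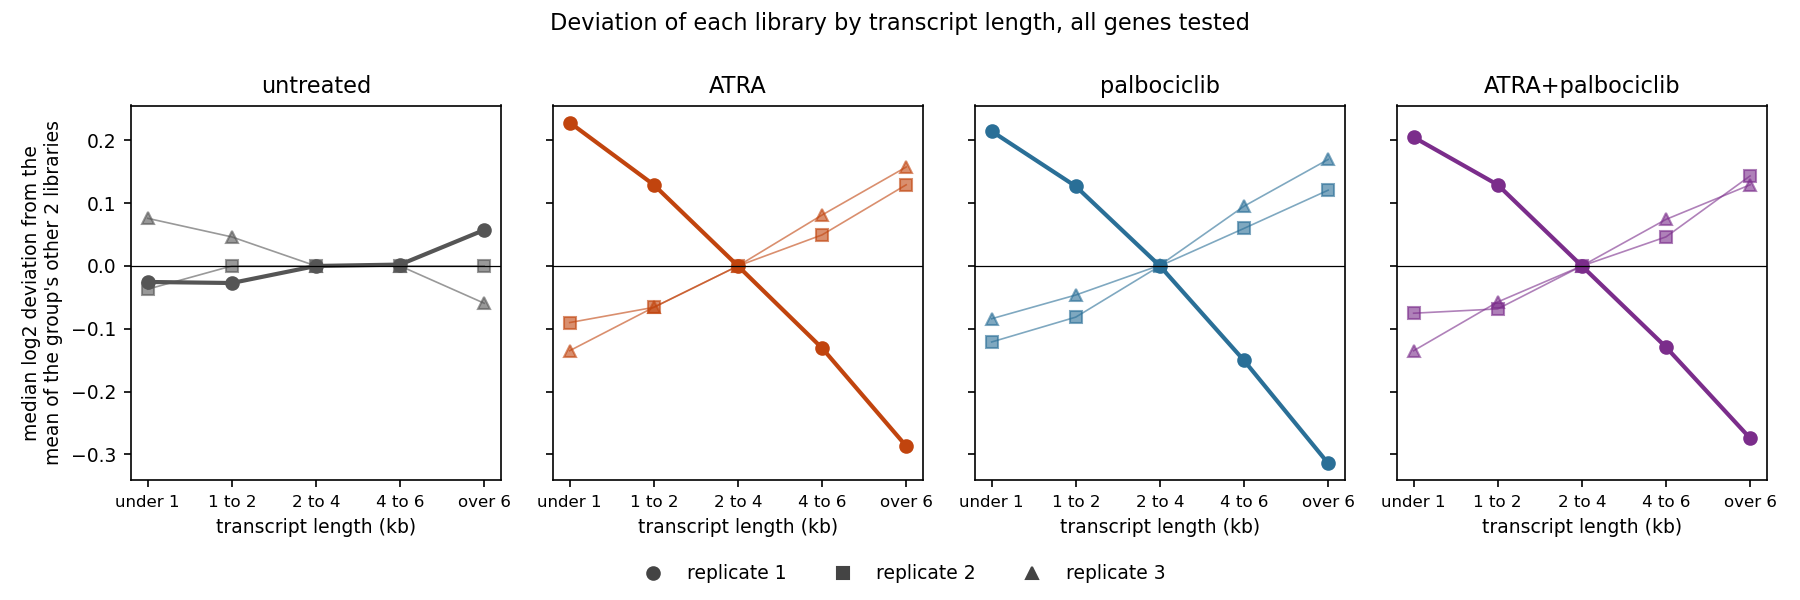
Median log2 deviation of each library from the mean of the other 2 libraries of its group (y axis), for the genes tested, by length of the canonical transcript in kilobases (x axis), with replicates as circles, squares and triangles. In the 3 treated groups the library numbered 1 falls from 0.20 to 0.23 for the shortest genes to between -0.27 and -0.31 for the longest, and the untreated libraries stay near 0.

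The first question was what 3 h of ATRA did to the transcripts of its own receptors. RARA (chr17:40309180-40357643, plus strand), the receptor isotype that mediates most retinoid responses of myeloid cells, was at 10, 11 and 10 RPKM in untreated cells and at 15, 18 and 16 RPKM with ATRA. With palbociclib it was at 11, 12 and 11 RPKM, and with the combination at 14, 19 and 18 RPKM. Every library with ATRA, alone or combined, lay above every library without it. RARA rose by 0.65 on the log2 scale with ATRA (SE 0.11, adjusted p = 0.00202), from 10.3 ± 0.577 to 16.3 ± 1.53 RPKM (mean ± SD, n = 3), and by 0.70 with the combination (SE 0.11, adjusted p = 0.000837). In bulk RNA, more cells expressing a gene and more RNA per cell cannot be told apart. Rounding to whole RPKM allows a ratio of the ATRA and untreated means between 1.46 and 1.71. Of RARA's exonic bases, 21.4% are shared with antisense genes, of which RARA-AS1 and 1 other are listed at 0 in every library.

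RXRA (chr9:134317098-134440585, plus strand), the main dimer partner of RARA, went the other way. It was at 12, 14 and 14 RPKM in untreated cells, 8, 9 and 10 RPKM with ATRA, 12, 15 and 16 RPKM with palbociclib and 8, 9 and 9 RPKM with the combination. The libraries with ATRA all lay below those without it. RXRA fell by 0.56 on the log2 scale with ATRA (SE 0.12, adjusted p = 0.00706) and by 0.61 with the combination (adjusted p = 0.00294). The mean went from 13.3 ± 1.15 to 9.0 ± 1.0 RPKM with ATRA and to 8.67 ± 0.577 RPKM with the combination (SD, n = 3). The deviation of the 3 treated libraries numbered 1 was smaller here than for NCOR1 and NCOA3. Without these 3 libraries the fall with ATRA was 0.48 (log2 fold change -0.48, adjusted p = 0.00769).

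RXRB (chr6:33193588-33200665, minus strand), the second retinoid X receptor expressed in these cells, was at 12, 13 and 12 RPKM in untreated cells, 14, 15 and 16 with ATRA, 15, 15 and 14 with palbociclib and 16, 16 and 17 with the combination. All treated groups lay above the untreated libraries, and the ATRA and palbociclib groups overlapped each other. RXRB rose by 0.28 on the log2 scale with ATRA (SE 0.065, adjusted p = 0.0113) and by 0.40 with the combination (SE 0.065, adjusted p = 0.000943). With palbociclib alone the log2 fold change was 0.25 (95% confidence interval 0.11 to 0.39), and the adjusted p of 0.0611 missed the threshold. Of RXRB's exonic bases, 9.26% lie on those of SLC39A7, a zinc transporter gene on the opposite strand. SLC39A7 moved in the same order, from 43.3 ± 1.15 RPKM in untreated cells to 55.7 ± 3.06 with ATRA, 49.3 ± 1.15 with palbociclib and 57.3 ± 2.08 with the combination (SD, n = 3). Reads were counted with htseq-count in its default settings, which use strand, and whether the library kit kept strand is not given in the sources used here. Whether reads of one gene entered the value of the other was not tested.

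RARB (chr3:24687887-25597932, plus strand), whose promoter repeat is printed above and which is a classical ATRA-induced gene in many cell types, was listed at 0 in all 12 libraries. RARG (chr12:53210567-53232980, minus strand), the third ATRA receptor, was listed at 0 in the 3 untreated and the 3 palbociclib libraries and at 1 in all 6 libraries with ATRA. At this resolution the RARG values say that it lay below 0.5 RPKM without ATRA and between 0.5 and 1.5 RPKM with it, and no fold is given. Neither gene was tested.

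**Figure D2:**
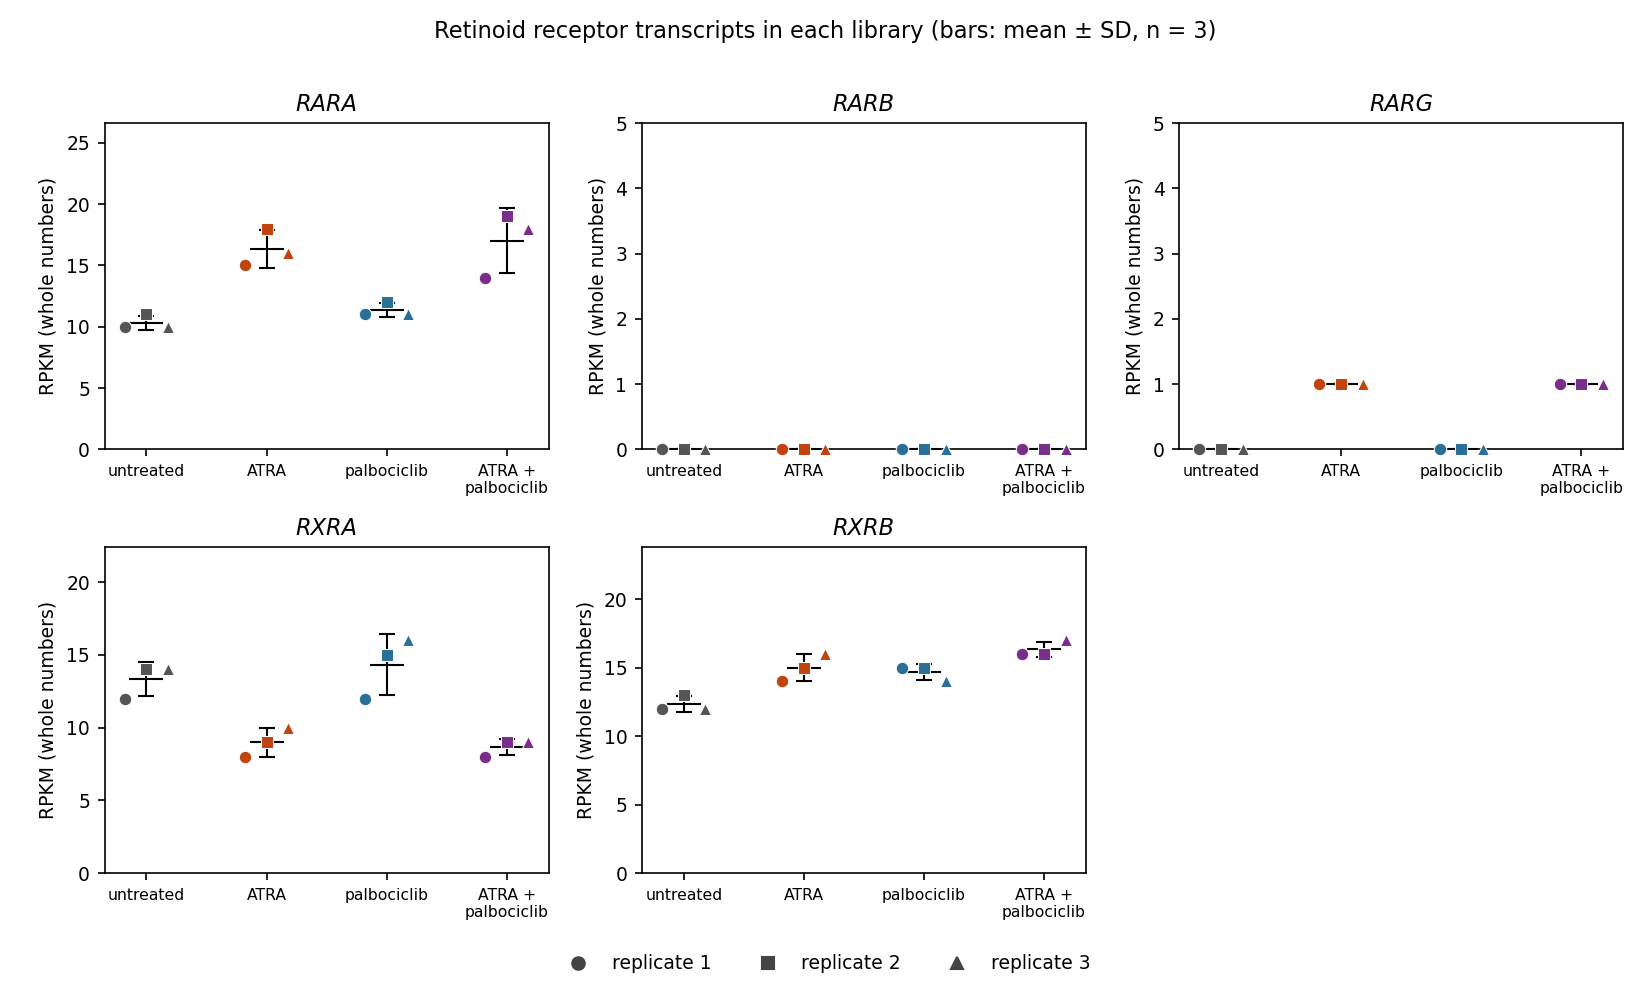
RPKM of the 5 receptor genes (y axis, from 0) in the 4 groups (x axis), with replicates 1, 2 and 3 as circles, squares and triangles and black bars for the mean ± SD (n = 3). RARA is at 14 to 19 in the 6 libraries with ATRA and 10 to 12 in those without, RXRA at 8 to 10 and 12 to 16, and RARB is at 0 throughout.

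The opposite changes of RARA and RXRA showed within each library. The ratio of RARA to RXRA RPKM was 0.833, 0.786 and 0.714 in untreated cells and 0.917, 0.800 and 0.688 with palbociclib. It was 1.88, 2.00 and 1.60 with ATRA and 1.75, 2.11 and 2.00 with the combination. So the RARA value was below that of RXRA in every library without ATRA and above it in every library with ATRA. With ATRA the sum of RXRA and RXRB changed less, at 24 to 27 RPKM in untreated cells, 22 to 26 with ATRA and 24 to 26 with the combination. With palbociclib alone the sum was 27 to 30 RPKM. RXRA's share of the sum was 50.0% to 53.8% in untreated cells and 44.4% to 53.3% with palbociclib. It was 36.4% to 38.5% with ATRA and 33.3% to 36.0% with the combination. These ratios rest on the same values as the tests above and were not tested again, and each carries the rounding of both genes.

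The coregulators covered a wider range. NCOA3 (chr20:47501887-47656877, plus strand), the p160 coactivator also known as SRC-3 or AIB1, had the highest level of the 9 genes in every library. It was at 22, 25 and 23 RPKM in untreated cells, 37, 69 and 67 with ATRA, 18, 31 and 29 with palbociclib and 39, 73 and 67 with the combination. The libraries with ATRA lay above all those without it, although the library numbered 1 was far below the other 2 in each treated group. NCOA3 rose by 1.25 on the log2 scale with ATRA (SE 0.30, adjusted p = 0.0125), from 23.3 ± 1.53 to 57.7 ± 17.9 RPKM (SD, n = 3), and by 1.30 with the combination (SE 0.30, adjusted p = 0.00727). Without the 3 treated libraries numbered 1 the log2 fold changes were 1.54 (adjusted p = 4.19e-05) and 1.58 (adjusted p = 2.73e-05). The call with ATRA was lost when untreated library 1 (adjusted p = 0.0513), ATRA library 2 (0.0556) or ATRA library 3 (0.0554) was left out, with log2 fold changes of 1.21, 1.09 and 1.11. Within same-numbered libraries the ratio of ATRA to untreated was 1.68, 2.76 and 2.91, although untreated libraries were not taken as paired with treated ones.

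NRIP1 (chr21:14961235-15065936, minus strand), the ligand-dependent corepressor, was at 4 RPKM in each untreated library, at 7, 14 and 14 with ATRA, at 3, 3 and 4 with palbociclib and at 7, 15 and 15 with the combination. No library without ATRA reached 5 RPKM, so NRIP1 passed the filter only through the 6 libraries with ATRA, and its call at this filter is no independent support. The log2 fold change was 1.45 with ATRA (SE 0.32, adjusted p = 0.00816) and 1.52 with the combination (SE 0.32, adjusted p = 0.00447). With the filter at 1 RPKM, which every library of NRIP1 passes, it remained called, at an adjusted p of 0.0233 and 0.0144. Without the treated libraries numbered 1 its log2 fold changes were 1.78 and 1.88.

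NCOR1 (chr17:16029065-16218185, minus strand), which recruits HDAC3 to unliganded receptors, was at 14, 14 and 13 RPKM in untreated cells. It was at 10, 17 and 18 with ATRA, 10, 15 and 16 with palbociclib and 10, 18 and 17 with the combination. The library numbered 1 lay below, and the other 2 above, all untreated libraries in each treated group. The log2 fold change was 0.09 with ATRA (95% confidence interval -0.51 to 0.68, adjusted p = 0.855) and 0.09 with the combination (adjusted p = 0.840). Without the 3 treated libraries numbered 1 it was 0.35 in both and was called (adjusted p = 0.00475 and 0.00347), and without all 4 libraries numbered 1 it was 0.37 (adjusted p = 0.0134 and 0.0102). These 2 fits were chosen after the data were seen, so whether NCOR1 changed depends on those libraries. The pseudogene copies of NCOR1 found by name in the table were listed at 1 at most.

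NCOA1 (chr2:24491254-24770702, plus strand), the founding p160 coactivator SRC-1, was at 2, 2 and 3 RPKM in untreated cells, 1, 2 and 2 with ATRA, 2, 2 and 2 with palbociclib and 1, 2 and 2 with the combination. All groups overlapped, rounding alone allows a ratio of the ATRA and untreated means between 0.412 and 1.18, and the gene was not tested. NCOA3 and NCOA1, which belong to the same family, thus differed in level by a wide margin in every library.

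**Figure D3:**
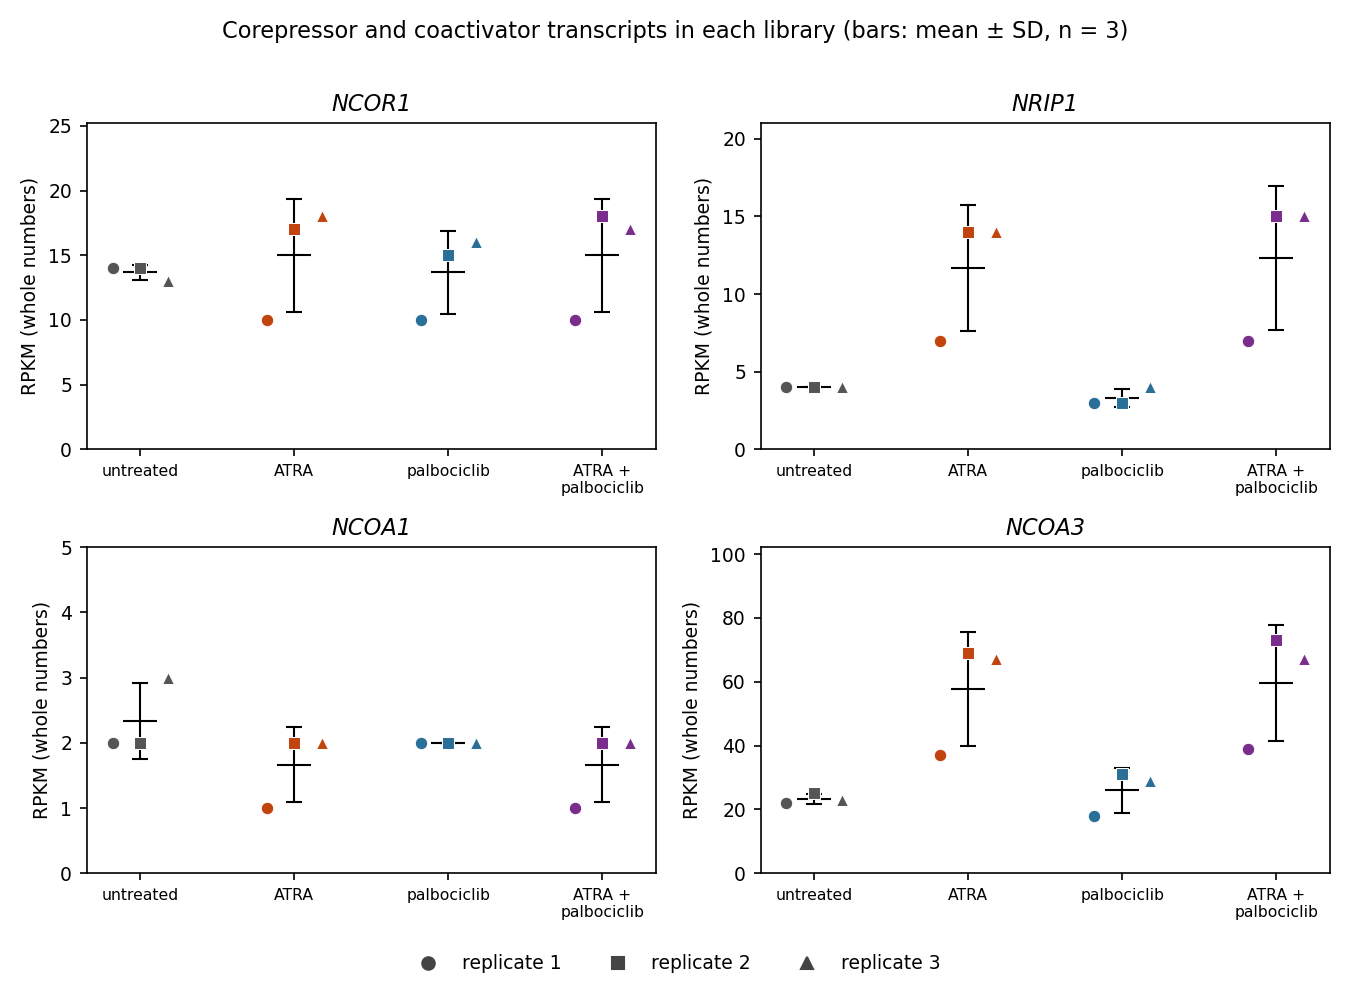
RPKM of the corepressors NCOR1 and NRIP1 and the coactivators NCOA1 and NCOA3 (y axis, from 0) in the 4 groups (x axis), with replicates 1, 2 and 3 as circles, squares and triangles and black bars for the mean ± SD (n = 3). NCOA3 is at 37 to 73 and NRIP1 at 7 to 15 in the libraries with ATRA. The circles (replicate 1) lie low in the treated groups for NCOR1 and NCOA3, and in the groups with ATRA for NRIP1.

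NCOA3 and NCOR1 were both low in the treated libraries numbered 1, and their ratio within a library varied less in the treated groups than either gene. It was 1.57, 1.79 and 1.77 in untreated cells, 3.70, 4.06 and 3.72 with ATRA, 1.80, 2.07 and 1.81 with palbociclib and 3.90, 4.06 and 3.94 with the combination. The coactivator thus exceeded the corepressor more with ATRA, in each of 6 libraries, than in any of the 6 without. The ratio of NCOA3 to NRIP1, which both rose with ATRA, was 5.5 to 6.25 in untreated cells and 6.0 to 10.3 with palbociclib. It was 4.79 to 5.29 with ATRA and 4.47 to 5.57 with the combination. Both ratios are descriptions without a test.

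**Figure D4:**
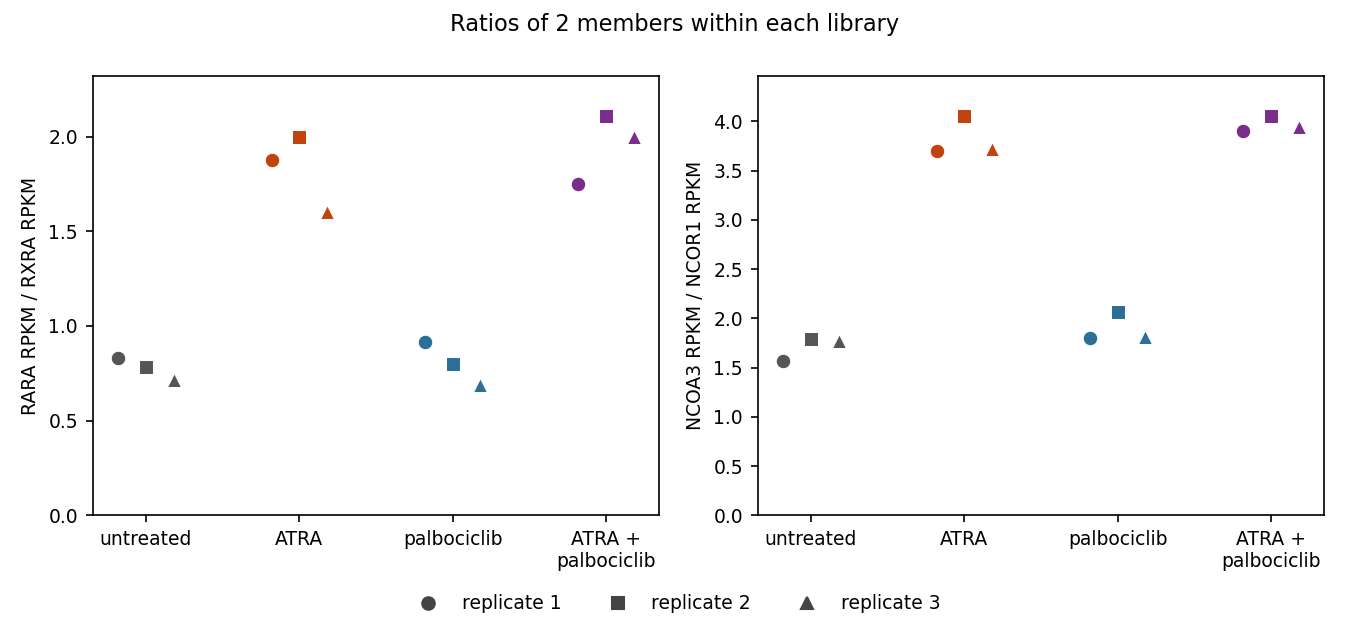
Ratio of RARA to RXRA RPKM and of NCOA3 to NCOR1 RPKM (y axes, from 0) in each of the 12 libraries by group (x axis), with replicates 1, 2 and 3 as circles, squares and triangles. Both ratios are higher in every library with ATRA (1.60 to 2.11 and 3.70 to 4.06) than in every library without it (0.688 to 0.917 and 1.57 to 2.07).

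The order of the levels differed between the groups. In untreated cells NCOA3 was highest, followed by NCOR1 (13.7 ± 0.577 RPKM), RXRA and RXRB, whose ranges overlapped their neighbours', then by RARA, NRIP1, NCOA1 and last RARB and RARG. With ATRA, RARA came after NCOA3, and RARA, NCOR1, RXRB (15.0 ± 1.0 RPKM) and NRIP1 each overlapped the next. RXRA had moved to sixth place, below NRIP1 (11.7 ± 4.04 RPKM), which it also overlapped. NCOR1 and RXRB had the same mean with ATRA. With the combination RXRB came before NCOR1, and the other genes kept their places. These are levels per gene length, which depend on the gene lengths the authors used.

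In the comparison of ATRA with untreated cells, RARA, RXRB, NRIP1 and NCOA3 rose, RXRA fell and NCOR1 did not pass the test, so 5 of the 6 genes tested were called, or 4 of 5 without NRIP1, which the filter had kept for its level with ATRA. Over all genes tested, 20.3% were called, 8.71% higher and 11.6% lower. The 9 genes were chosen with earlier results of these data known. The member counts here and in the comparisons below are therefore descriptions and no independent test of the set. At an adjusted p under 0.001 the count was 0 of 6, against 4.72% of all genes. In the comparison of palbociclib with untreated cells 0 of 6 were called by limma, against 4.07% of all genes (0.908% higher, 3.16% lower), and RXRB was the one member with an unadjusted p under 0.05 (0.00292). Apart from RXRB, the log2 fold changes with palbociclib lay between -0.27 for NRIP1 and 0.13 for RARA. Leaving out the treated libraries numbered 1 gave a call for NCOA3 with palbociclib (log2 fold change 0.36, adjusted p = 0.0304), and leaving out all 4 libraries numbered 1 did not (0.32, adjusted p = 0.0675).

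The combination against untreated cells called the same 5 genes in the same directions as ATRA, again 4 of 5 without NRIP1, against 30.4% of all genes (12.7% higher, 17.7% lower). At an adjusted p under 0.001 RARA and RXRB remained, against 8.04% of all genes. The ATRA, palbociclib and combination comparisons share the 3 untreated libraries, so their likeness is not independent evidence.

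What palbociclib added to ATRA was addressed by the combination against ATRA. None of the 6 genes was called by limma, none had an unadjusted p under 0.05, and 0.115% of all genes were called. The log2 fold changes were 0.05 for RARA (95% confidence interval -0.20 to 0.29), -0.05 for RXRA (-0.31 to 0.21) and 0.12 for RXRB (-0.02 to 0.27). For the coregulators the intervals were wider, -0.60 to 0.71 for NCOA3, -0.63 to 0.76 for NRIP1 and -0.60 to 0.60 for NCOR1. For the receptors a change of the size seen with ATRA thus lay outside the interval in RARA and RXRA. In RXRB it lay just outside (0.28 against an upper bound of 0.27). The changes of NCOA3 (1.25) and NRIP1 (1.45) with ATRA also lay outside their intervals, and that of NCOR1 (0.09) lay inside. The coregulator intervals still reach changes of over 0.5 in either direction, but this fit does not use the pairing of treated libraries by number. Within same-numbered libraries the ratio of the combination to ATRA was 1.05, 1.06 and 1.00 for NCOA3. It was 1.00, 1.07 and 1.07 for NRIP1 and 1.00, 1.06 and 0.944 for NCOR1. With the replicate number as a block over all libraries 0.652% of all genes were called, and over the 9 treated libraries, which the numbers pair, 2.33%, with none of the 6 genes in either fit.

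What ATRA added to palbociclib was addressed by the combination against palbociclib. RARA rose by 0.57 on the log2 scale (SE 0.11, adjusted p = 0.00615), NRIP1 by 1.79 (SE 0.32, adjusted p = 0.00346) and NCOA3 by 1.18 (SE 0.30, adjusted p = 0.0229), and RXRA fell by 0.71 (SE 0.12, adjusted p = 0.00251). RXRB had a log2 fold change of 0.15 (adjusted p = 0.172) and NCOR1 of 0.12 (adjusted p = 0.870). NRIP1 had again passed the filter only through libraries with ATRA, and without it 3 of 5 were called. These counts stand beside 12.5% of all genes, 5.86% higher and 6.64% lower, with 23.5% under the replicate block over all libraries and with 36.2% under the block over the 9 treated libraries, a fit added after the data were seen. Both block fits called the same 4. At an adjusted p under 0.001 none of the 6 was called, against 3.11% of all genes. The NCOA3 call was lost without palbociclib library 1 (log2 fold change 0.94, adjusted p = 0.0860) or 3 (1.28, 0.0533) and without combination library 2 (1.01, 0.101) or 3 (1.07, 0.0927), and held without the libraries numbered 1 in the treated groups (1.22, 0.000223). Without those libraries NRIP1 had a log2 fold change of 2.08 (adjusted p = 0.000179) and RXRA of -0.78 (adjusted p = 0.00277). With only the libraries compared in the fit, RARA (adjusted p = 0.0612) and NCOA3 (adjusted p = 0.103) were not called, and with the filter at 1 RPKM NCOA3 was not (adjusted p = 0.0625).

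The departure from additivity is the effect of palbociclib in the presence of ATRA minus its effect without ATRA. None of the 6 genes departed by the test, with log2 values from -0.15 for RXRA to 0.33 for NRIP1 and no unadjusted p under 0.05 among them. Over all 7820 genes tested 0% were called by limma, and 236 had an unadjusted p under 0.05, a share of them below 0.05. The 95% confidence interval was -0.43 to 0.26 for RARA, -0.52 to 0.23 for RXRA and -0.33 to 0.08 for RXRB. For NCOA3 it was -0.99 to 0.86. A departure of NCOA3 as large as those bounds would not have been detected by this fit, which does not use the pairing.

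**Figure D5:**
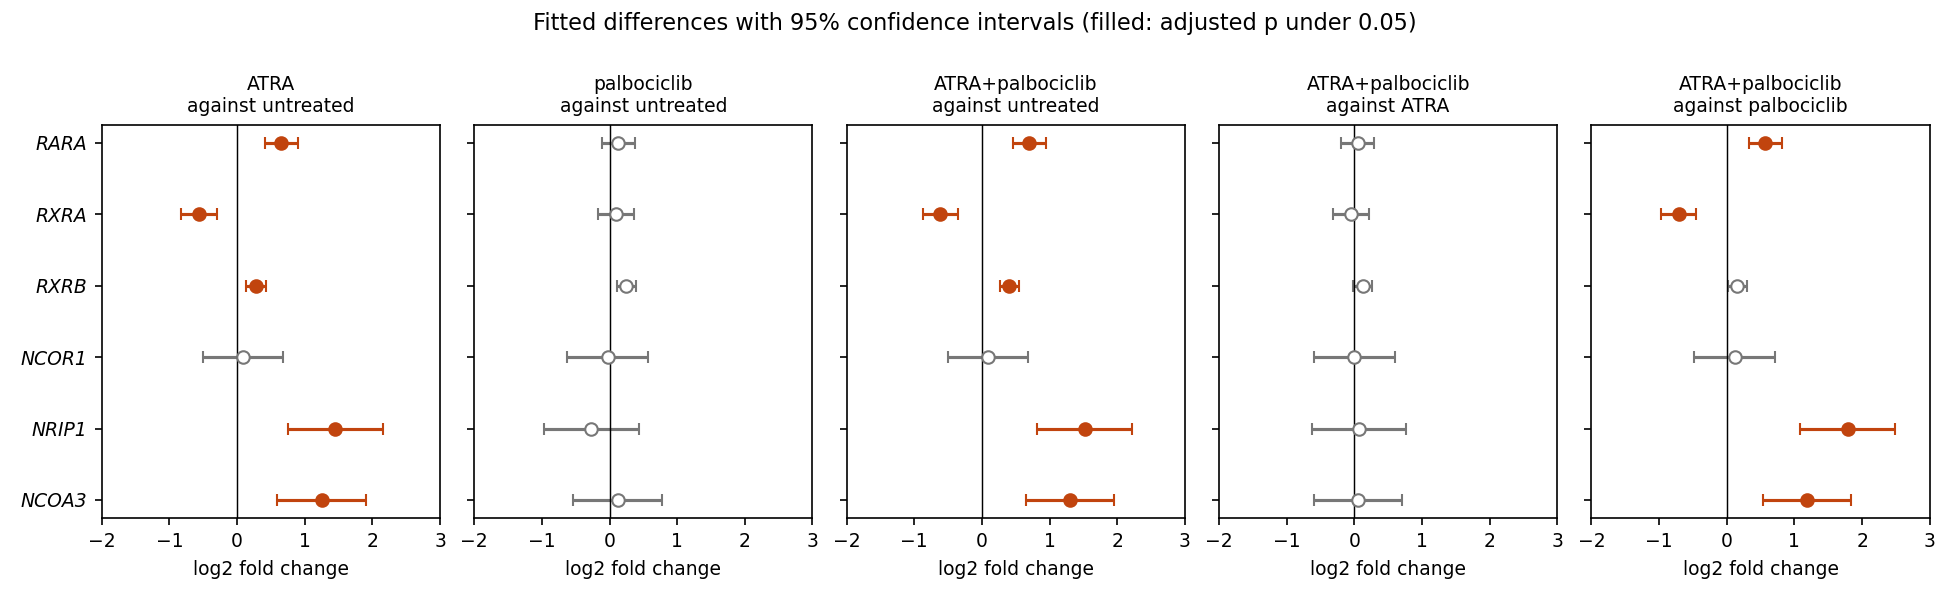
Fitted log2 fold changes (x axis) of the 6 genes tested (y axis) in 5 comparisons, as points with 95% confidence intervals, filled where the adjusted p was under 0.05. RARA, NRIP1 and NCOA3 lie right of 0 and RXRA left of 0 in the 3 comparisons that differ in ATRA, the combination against ATRA has no filled point, and the intervals of NCOR1, NRIP1 and NCOA3 are the widest.

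Retinoid action in these cells was checked with 6 known response genes. DHRS3, a retinaldehyde reductase, was at 0, 1 and 0 RPKM in untreated cells and at 40, 48 and 47 with ATRA, CD38 went from 3, 2 and 2 to 13, 17 and 20, and HIC1 from 0 in each library to 8, 11 and 10. With the combination they were at 41, 50 and 49, at 15, 17 and 21 and at 8, 12 and 9 RPKM. None of the 3 reached 5 RPKM in a library without ATRA, so the filter kept them for that difference and their levels are given as a description, without a test. The retinoic acid hydroxylases CYP26A1 and CYP26B1 and the transglutaminase TGM2 were listed at 0 in all libraries.

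Among 14 other nuclear receptors that pair with RXR or act beside it, 7 were listed at 0 throughout, RXRG among them, and only 3 passed the filter. NR1H2, the liver X receptor beta, went from 11 RPKM in each untreated library to 17, 16 and 16 with ATRA (log2 fold change 0.57, adjusted p = 0.000120). PPARD went from 2, 4 and 2 to 5, 7 and 6 (1.20, adjusted p = 0.00765), and the vitamin D receptor VDR from 6, 5 and 5 to 3, 2 and 3 (-0.99, adjusted p = 0.00376). PPARD reached 5 RPKM only with ATRA and VDR only without it, so the filter kept them for that difference and their calls are no independent support. NR1H2 was above 5 RPKM in every library. Over all genes tested 20.3% were called with ATRA. The combination called the same 3 in the same directions, against untreated cells (30.4% of all genes called) and against palbociclib (12.5%). With palbociclib 0 of the 3 were called, against 4.07% of all genes.

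Of 20 genes of corepressor complexes, 16 were tested and 4 changed with ATRA, against 20.3% of all genes, with a median log2 fold change of -0.13 over the 16 against -0.01 over all genes. SAP30, a subunit of the Sin3 deacetylase complex, fell by 1.00 on the log2 scale (from 24, 28 and 28 to 15, 13 and 12 RPKM, adjusted p = 5.73e-05). The histone demethylase KDM1A fell by 0.31 (adjusted p = 0.00145) and the deacetylase HDAC2 by 0.20 (adjusted p = 0.0461), and TNIP1 rose by 0.29 (adjusted p = 0.0220). With the combination 5 fell and 1 rose, against 30.4% of all genes called in either direction. CTBP2 (log2 fold change -0.36, adjusted p = 0.0104) and RCOR1 (-0.29, adjusted p = 0.0235) were added to the falls. With palbociclib 0 of 16 were called, against 4.07% of all genes. SAP30 and KDM1A were also lower, and TNIP1 higher, in the combination than with palbociclib (log2 fold changes -1.04, -0.23 and 0.27). In that comparison 12.5% of all genes were called.

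Of 23 other coactivator genes 17 were tested and 0 were called with ATRA by limma (3 had an unadjusted p under 0.05), against 20.3% of all genes, with a median log2 fold change of 0.00 (-0.01 over all genes). The third p160 coactivator, NCOA2, was at 5, 4 and 4 RPKM in untreated cells and at 3, 5 and 5 in each treated group. The acetyltransferase EP300 was at 11, 11 and 9 RPKM and 8, 12 and 13 with ATRA, and its relative CREBBP at 6, 6 and 5 and 4, 7 and 7, in both with the ATRA library numbered 1 lowest. With the combination 4 of 17 were called, against 30.4% of all genes. NCOA4 rose by 0.31 on the log2 scale (adjusted p = 0.0157), and TRIM24 fell by 0.46 (adjusted p = 0.0196), NCOA5 by 0.22 (adjusted p = 0.0291) and CARM1 by 0.21 (adjusted p = 0.0484). Of the p160 coactivators, NCOA3 was called with ATRA and NCOA2 was not, and NCOA1 was under the filter and could not be called. The difference between NCOA3 and the others was not tested.

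The genes whose pattern over the 12 libraries was most like that of a called member were found by Pearson's r of log2(RPKM + 0.1) among 7819 other genes. They were PSAP (0.984), ARHGAP45 (0.983) and GAS7 (0.983) for RARA, and MAPK14 (0.988), MLX (0.983) and NAV3 (0.979) for RXRA. RXRB was most like DNAL4 (0.953), CLCN7 (0.950) and TARS2 (0.950). For NRIP1 they were SEMA4D (0.985), NOTCH2 (0.984) and SAMHD1 (0.982), and for NCOA3 NFATC2 (0.990), PIK3CG (0.989) and TTYH3 (0.985). The 12 points share their 4 treatments and, within a replicate number, the length pattern described above, and no p is given.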

How the data were processed

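Poly(A) RNA of HL-60 cells was sequenced in 12 libraries. The authors mapped reads to hg38 with HISAT2 and counted them with htseq-count in default settings. They deposited RPKM rounded to whole numbers, treated here as a score with a step of 1, for each library without pooling. The annotation release, the gene lengths and whether the library kit kept strand are not given in the sources used here, and depth is stated only as an average per sample, so no counting error or floor is stated, and rounding limits the precision of low values.

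Groups and replicate numbers came from the sample labels. limma 3.58.1 (R 4.3.3; eBayes with a variance trend) was run on log2(RPKM + 0.1) of the 12 libraries, with 1 mean per group, for 7820 genes with at least 5 RPKM in at least 3 libraries. p-values were adjusted (Benjamini-Hochberg) over all genes within a comparison and called under 0.05. The pseudocount shrinks fold changes of low genes, and those against genes listed at 0 depend on it and on rounding. The scripts were tested on simulated data. Python 3.11.15 made tables and figures.

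The 9 genes, the lists and the threshold were chosen with earlier results of these data known. The text names all 9, list genes called in a comparison (up to 4 each, largest change first), other list genes picked after their values were seen, and the 3 genes most like each called member. Coordinates and lengths are from GENCODE v44 (GRCh38) and promoters from RefSeq (GRCh38.p14), all 9 genes matching. Alternatives were an adjusted p under 0.001, a pseudocount of 1, a filter at 1 RPKM or none, a replicate block, median centring, only the libraries compared, no variance trend, and each library left out. Replicates of a group shared 17.9% to 36.5% identical values, so none was a duplicate.

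Same-numbered libraries deviated together between treated groups (r across genes 0.438 to 0.908 for every pair), and the treated libraries were taken as paired by number. With untreated libraries r was 0.0453 to 0.367, and these were not taken as paired.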

Additional observations from a re-analysis of the deposited data

How the results depend on the processing

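The number of the 6 genes called stayed within 1.5 times the reported one except in these cases. An adjusted p under 0.001 gave 0 with ATRA, 2 with the combination and 0 for the combination against palbociclib, and with the replicate block added, a setting chosen after seeing the data, 3 with ATRA (NCOA3, RARA and RXRA). With only the libraries compared, the combination against palbociclib gave 2 (NRIP1 and RXRA). For palbociclib against untreated, the replicate block gave 1 (RXRB, adjusted p = 0.0281) and the fit without the treated libraries numbered 1, also chosen afterwards, gave 1 (NCOA3). The untreated libraries are not paired with the treated ones by number, and the block changed no other member's call. The cause of these shifts was not tested, apart from the lower threshold. Leaving out 1 library at a time gave 4 to 5 calls with ATRA, 3 to 4 for the combination against palbociclib, 5 for the combination and 0 in the other comparisons. The filter at 1 RPKM and no filter each brought RARG into the test and called it, on replicates that rounding had made identical, and dropped NCOA3 in the combination against palbociclib (adjusted p = 0.0625 and 0.0667).

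Of 833 recomputed member values 32 changed sign, all of them not called at the reported setting. Without the treated libraries numbered 1, NCOR1 changed to 0.18 with palbociclib and to -0.18 for the departure from additivity, and without all libraries numbered 1 to 0.20 and -0.20. With each library left out in turn, NCOR1 ranged from -0.066 to 0.35 with ATRA and with the combination, -0.16 to 0.18 with palbociclib, -0.093 to 0.38 for the combination against palbociclib and -0.24 to 0.30 for additivity. NCOA3 ranged from -0.24 to 0.33 for the combination against ATRA, -0.36 to 0.21 for additivity and -0.028 to 0.36 with palbociclib. For the combination against ATRA, NRIP1 ranged from -0.26 to 0.43, RARA from -0.037 to 0.18 and RXRA from -0.13 to 0.028, and RARA from -0.17 to 0.050 for additivity.

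Over all genes tested, the replicate block raised the calls from 1590 to 2767 with ATRA, 318 to 1066 with palbociclib, 9 to 51 for the combination against ATRA and 977 to 1839 against palbociclib. Leaving out the treated libraries numbered 1 gave 2516, 644 and 48 in the first 3 of these and 48 in place of 0 for additivity, and the filter at 1 RPKM gave 90 for additivity and 41 for the combination against ATRA. Rounding and 3 libraries per group limit what can be seen of NCOA1, RARB and RARG, and the spread of the treated libraries limits NCOR1, NRIP1 and NCOA3.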

Other observations

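The carriers of retinoic acid differed in level. FABP5, which delivers retinoic acid to another nuclear receptor, PPARD, was at 71, 66 and 66 RPKM in untreated cells, 78, 57 and 53 with ATRA, 74, 59 and 58 with palbociclib and 82, 55 and 53 with the combination. The treated library numbered 1 was the highest of its group each time, the reverse of the long coregulator transcripts, and FABP5 was not called with ATRA (limma log2 fold change -0.13, adjusted p = 0.663). CRABP2, which delivers it to the retinoic acid receptors, was listed at 1 or 2 in every library and CRABP1 at 0.

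Of 6 myeloid marker genes, 5 were tested and 1, the azurocidin gene AZU1, was called with ATRA, against 20.3% of all genes. It went from 14, 13 and 13 RPKM to 22, 17 and 18 (limma log2 fold change 0.50, adjusted p = 0.0285). With the combination it was again the 1 called (0.77, adjusted p = 0.00196), against 30.4% of all genes. With palbociclib AZU1 was at 22, 16 and 18 RPKM and was not called (0.47, adjusted p = 0.0936). Its library numbered 1 was the highest of each treated group. With ATRA the log2 fold changes of MPO, CTSG and CD33 were -0.25, -0.41 and -0.14, and that of PRTN3 was 0.31, none of them called. CTSG, which encodes cathepsin G, was called lower in the combination than with palbociclib (log2 fold change -0.58, adjusted p = 0.0167), at 17, 16 and 16 RPKM against 21, 24 and 29. MPO, the myeloperoxidase gene, was lower in the same comparison (log2 fold change -0.31, adjusted p = 0.0364). These 2 were the markers called there, against 12.5% of all genes.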
